A study of Mus musculus with 35 samples.

Results

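The apical side of an epithelium and its junctions were followed through 10 genes: Podxl, Ezr and Slc9a3r1 of the apical membrane, Pard3, Pard6b and Prkci of the Par complex, Crb3 of the Crumbs complex, and Cgn, Tjp1 and Ocln of the tight junction. They were picked by name, as genes of epithelia that face a lumen, and all 10 were found among the 54446 genes of the deposited table. Their expression was measured by bulk RNA-seq in 27 libraries of mouse pluripotent cells, 3 for each of 9 groups. In culture, these were epiblast-like cells (EpiLCs, embryonic stem cells after 48 h of FGF2 and ActivinA), 2D EpiSCs (epiblast stem cells, converted from ESCs with FGF2 and ActivinA and grown flat on fibronectin), and ESC-derived and embryo-derived 3D EpiSCs. The 3D cultures were kept in Matrigel in FAXN medium, which adds the tankyrase inhibitor XAV and the BMP antagonist Noggin to FGF2 and ActivinA, and the embryo-derived culture was started from E5.5 epiblasts. Medium and dimension therefore changed together between 2D and 3D EpiSCs, as did the origin and the genetic background between the 3D cultures. Origin also changed between the embryo-derived culture and the 2D EpiSCs and EpiLCs, which came from ESCs, and genetic background may have changed with it. Differences of the embryo-derived culture from these therefore cannot be assigned to medium or dimension. In vivo, the groups were the laser-dissected E3.5 inner cell mass (ICM), E4.5 epiblast cells left after immunosurgery and picked by hand as negative for a Pdgfra reporter, and E5.5, E6.5 and E7.5 epiblasts freed by hand of visceral endoderm and extra-embryonic ectoderm. Embryos were pooled, untreated and labelled as wild-type CD-1 of both sexes, and the cultures were labelled as wild-type too. The study's methods, however, give matings of CD-1 mice or of the Pdgfra reporter line, and the reporter line for E4.5. Mouse line may therefore have changed together with stage at the steps to and from E4.5. Nothing in the labels says that replicates came from separate cultures, so p-values measure only the spread between these libraries, which may be technical.

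In a polarised epithelium, the Par complex of PAR3, PAR6 and atypical protein kinase C, together with the Crumbs complex, marks out the apical domain and keeps it apart from the basolateral one. Podocalyxin, a heavily sialylated and negatively charged membrane protein, is carried in vesicles to the apical membrane, where it is tied to actin through NHERF1 (Slc9a3r1) and ezrin, and its charge helps facing membranes to part when a lumen opens. Tight junctions seal the cells below that domain. The mouse epiblast makes this change around implantation, when a cluster of unpolarised cells becomes a rosette and then a cup around the proamniotic cavity, and 3D EpiSCs form spheroids around a lumen of their own.

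All 10 genes are protein-coding and autosomal, and their spans below are those of the deposited table on mm10. Podxl lies at chr6:31519488-31563981, Ezr at chr17:6738041-6782784 and Slc9a3r1 at chr11:115163341-115181181. Of the Par complex, Pard3 lies at chr8:127063893-127612286, Pard6b at chr2:168081004-168101203 and Prkci at chr3:30995747-31052959. Crb3 lies at chr17:57059105-57065918, Cgn at chr3:94760069-94786492, Tjp1 at chr7:65296165-65527781 and Ocln at chr13:100496507-100552718. RefSeq windows of 250 bases before a transcription start were found for 9 of the 10 genes on GRCm38.p6, the assembly that mm10 is built on, and Podxl was the gene without a window. They are shown for 3 junction and Crumbs genes whose level differed in culture or in the embryo, each 5′ to 3′ along its own strand. Capitals mark the letters CACCTG or CAGGTG, an E-box of the kind bound by Snail and Zeb repressors of epithelial genes, and GGGCGG or CCGCCC, the GC box bound by Sp and Klf factors. Where RefSeq gives several starts, the window nearest the start of the gene in the deposited table is shown.
Crb3 (chr17:57061951-57062200, plus strand): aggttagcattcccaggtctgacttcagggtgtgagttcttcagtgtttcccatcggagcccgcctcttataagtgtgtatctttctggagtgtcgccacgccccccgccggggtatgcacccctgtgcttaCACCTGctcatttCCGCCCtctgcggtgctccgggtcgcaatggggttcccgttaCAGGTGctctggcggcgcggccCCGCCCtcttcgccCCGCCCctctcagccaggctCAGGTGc
Cgn (chr3:94786483-94786732, minus strand): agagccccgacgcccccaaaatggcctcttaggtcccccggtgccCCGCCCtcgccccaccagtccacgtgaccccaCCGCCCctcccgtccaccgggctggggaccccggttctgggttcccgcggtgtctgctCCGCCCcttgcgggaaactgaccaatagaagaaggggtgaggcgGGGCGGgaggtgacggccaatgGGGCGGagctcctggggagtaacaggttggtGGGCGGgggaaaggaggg
Ocln (chr13:100552719-100552968, minus strand): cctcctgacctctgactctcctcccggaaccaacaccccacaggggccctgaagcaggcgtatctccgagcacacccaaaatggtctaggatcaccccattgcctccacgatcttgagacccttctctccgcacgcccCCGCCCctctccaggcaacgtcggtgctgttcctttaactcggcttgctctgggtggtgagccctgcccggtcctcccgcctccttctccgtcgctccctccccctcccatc

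The Crb3 window held 3 E-boxes and 3 GC boxes, the Cgn window 0 and 6, and the Ocln window 0 and 1. Over all 32851 windows of the same length, 17.2% held an E-box, 32.7% held a GC box, and 0.247% held 3 or more E-boxes, a count looked up after the Crb3 window was read. No E-box overlapped a GC box. Windows of a further start held 3 E-boxes for Crb3 and 2 for Ocln, where they overlap the shown ones, and 3 for Pard3, and the Pard6b window had 2. The shown Crb3 window lies within the span that the deposited table gives the gene, since the RefSeq start is 3096 bases from the start of that span. These matches are descriptions of letters and say nothing of what binds there.

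Levels are given as TPM, the length-corrected share of a gene among all transcripts, as the authors computed it, so that genes can be set side by side. The study's methods give 1 sequencing depth for all libraries, but TPM keeps no count, so the depth behind each value could not be checked. A library had between 20324 and 26751 genes above 0 TPM. Differences were tested with limma on log2(TPM + 1), across 11541 genes in the cultures and 11880 in the embryo, and a gene is said to be called, or to rise or fall, when its log2 fold change exceeded 1 in either direction with an adjusted p under 0.05. Each log2 fold change is of TPM + 1 and is given with its SE. All 10 genes passed the filter on low values in both settings. Cultures and embryo tissue were prepared with different kits and were not tested against each other. The median of all genes tested lay off 0 by over 0.1 in several comparisons, most at E7.5 against E6.5 (0.31), and at -0.21 in ESC-derived 3D against 2D EpiSCs. Rescaling the libraries by median-of-ratios factors brought these medians near 0 and moved the share of higher genes among those called from 6.40% to 15.5% in ESC-derived 3D against 2D EpiSCs, from 74.8% to 63.0% in 2D EpiSCs against EpiLCs, from 49.9% to 64.4% between the 3D cultures, from 84.6% to 65.8% at E7.5 against E6.5 and from 77.0% to 62.8% at E7.5 against E5.5.

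The libraries were checked against markers of the cells they could hold, as summed TPM of each list. The 7 epiblast markers summed to 2376 to 2591 in EpiLCs, 2507 to 2775 in 2D, 2772 to 3103 in ESC-derived 3D and 2839.7 to 3094 in embryo-derived 3D EpiSCs, and to 1267 to 1379.7 at E5.5 and 361 to 390.0 at E7.5. The 12 visceral and primitive endoderm markers summed to 494 to 508 at E3.5, 148 to 179 at E4.5, 915 to 976 at E5.5, 1563 to 1619.9 at E6.5 and 1817 to 1866 at E7.5, although visceral endoderm had been dissected away from E5.5 on. The 10 trophectoderm and extra-embryonic ectoderm markers summed to 2249.9 to 2314 at E3.5 and 2033 to 2149 at E4.5, led by Krt18, and to 216 to 248 at E5.5, 241 to 267 at E6.5 and 495 to 510.1 at E7.5. Afp and Rbp4 were at 0 in every E3.5 and E4.5 library, and both were above 0 from E5.5. The 8 primitive streak and mesoderm markers summed to 26.4 to 27.4 at E5.5 and 323 to 329 at E7.5. In culture, the endoderm markers summed to 2.85 to 4.15 in EpiLCs, 53.4 to 73.3 in 2D, 2.13 to 19.6 in ESC-derived 3D and 15.9 to 31.2 in embryo-derived 3D EpiSCs, and the trophectoderm markers to 33.5 to 53.0, 285 to 393, 148 to 235 and 118 to 127, led by Krt18 in each. Trophectoderm and visceral endoderm are themselves polarised epithelia, and the part of these cells in the results below was not tested. In bulk tissue, fewer cells of a type and less RNA per cell cannot be told apart.

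**Figure D1:**
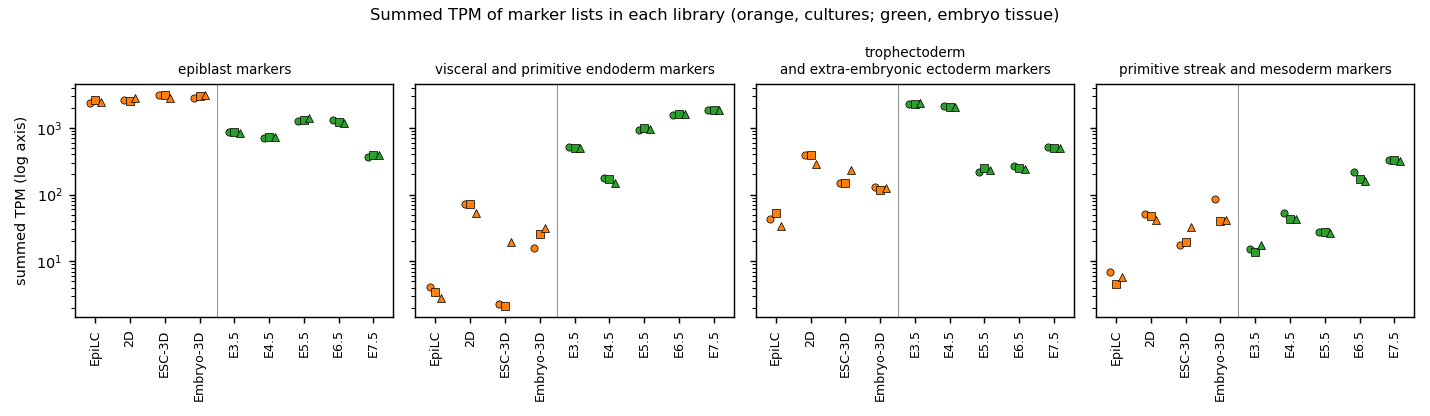
Summed TPM (log axis) of 4 marker lists in each library, as points shaped by replicate, for the 4 cultures (orange) and the 5 embryo groups (green). Trophectoderm markers are high at E3.5 and E4.5, and endoderm markers are high in the embryo from E5.5 and low in culture.

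Replicate 3 of the ESC-derived 3D EpiSCs stood apart from replicates 1 and 2, at a median absolute log2 difference of 0.27 from each against 0.061 between them. Its endoderm markers summed to 19.6, against 2.28 and 2.13 in replicates 1 and 2, and its trophectoderm markers to 235, against 148 and 149.6. Its primitive streak and mesoderm markers summed to 32.1, against 17.5 and 19.2, and its epiblast markers to 2772, against 3103 and 3065. Many values of that group are therefore also given without replicate 3. The closest pairs were ESC-derived 3D replicates 1 and 2, embryo-derived 3D replicates 2 and 3 and 2D replicates 1 and 2, at 0.057 to 0.065, while all other pairs of 1 group lay at 0.10 or more. The fragmentation of RNA was 6 min at 85 °C for the E3.5 and E4.5 libraries and 4 min at 94 °C from E5.5 on, so that the step from E4.5 to E5.5 and this change cannot be told apart.

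Counted over the 10 genes, every call against 2D EpiSCs was a lower level in the 3D cultures. In ESC-derived 3D against 2D EpiSCs, 1 of 10 was called, Podxl, which was lower, beside 9.89% of all genes tested called and 9.25% called lower. Without replicate 3, 3 of 10 were called, but these shares are from the fit of all libraries. That count therefore has no share beside it and is not read as a result about the 10. In embryo-derived 3D against 2D EpiSCs, Podxl and Cgn, 2 of 10, were called lower, beside 8.82% called and 7.75% called lower. At an adjusted p below 0.05 and any fold, 6 of 10 genes were lower in ESC-derived and 6 of 10 in embryo-derived 3D EpiSCs, beside 35.9% and 22.9% of all genes, and none was higher. Without replicate 3 of the ESC-derived culture, 6 of 10 were lower there at any fold, again without a share of all genes from that fit. The median log2 fold change of the 10 genes was -0.50 and -0.44, beside -0.21 and -0.077 for all genes tested, and -0.57 beside -0.27 in the ESC-derived culture without that replicate. These comparisons share the 2D libraries.

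Against EpiLCs, 2 of 10 were called in ESC-derived 3D EpiSCs, Crb3 higher and Cgn lower, beside 12.4% of all genes called, 5.33% higher and 7.11% lower. Crb3 was again higher and Cgn lower in the embryo-derived culture, beside 18.8% called, 10.5% higher and 8.28% lower. In 2D EpiSCs, Podxl and Crb3 were called higher, 2 of 10, beside 20.4% called and 15.2% called higher. Between the 3D cultures limma called 0 of 10, beside 3.96% of all genes. At an unadjusted p below 0.05, 37.5% of all genes and 7 of 10 passed there. These counts are small, and shares of 10 genes near those of all genes are no result about the 10.

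**Figure D2:**
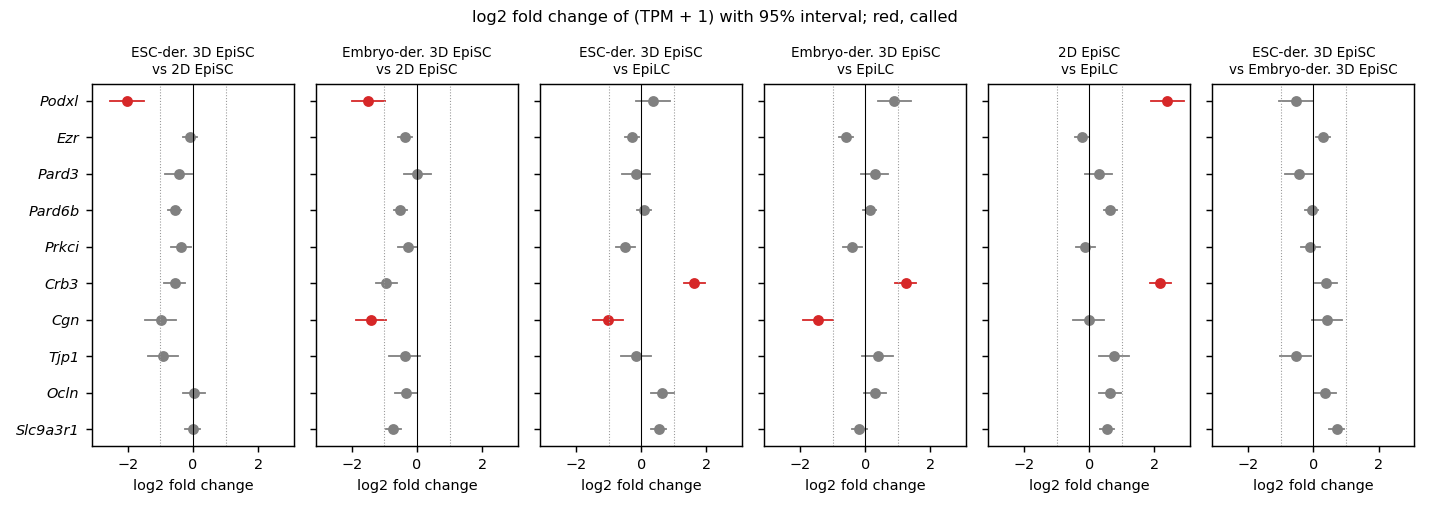
log2 fold change of TPM + 1 (horizontal axis) with its 95% interval for the 10 genes in the 6 culture comparisons, red where called. Podxl lies to the left in both comparisons of 3D with 2D EpiSCs and to the right in 2D EpiSCs against EpiLCs, and Crb3 lies to the right in all 3 comparisons with EpiLCs.

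In the embryo, 4 of 10 were called from E3.5 to E4.5, Podxl and Ezr higher and Pard3 and Cgn lower, beside 17.8% of all genes called, 5.88% higher and 11.9% lower. From E4.5 to E5.5, 3 of 10 were called, Podxl higher and Ezr and Ocln lower, beside 24.4% called, 14.9% higher and 9.47% lower. From E5.5 to E6.5 limma called 0 of 10, beside 1.20% of all genes, and at an unadjusted p below 0.05 there were 26.6% of all genes and 2 of 10. From E6.5 to E7.5, 1 of 10 was called, lower, beside 12.6% called and 1.94% called lower, and from E5.5 to E7.5 it was the same 1 gene, Crb3, beside 12.7% called and 2.91% called lower. The median log2 fold change of the 10 genes was -0.097, 0.27, -0.047 and 0.018 over the 4 steps, beside -0.10, 0.16, -0.060 and 0.31 for all genes tested. Neighbouring steps share the libraries of the stage between them.

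**Figure D3:**
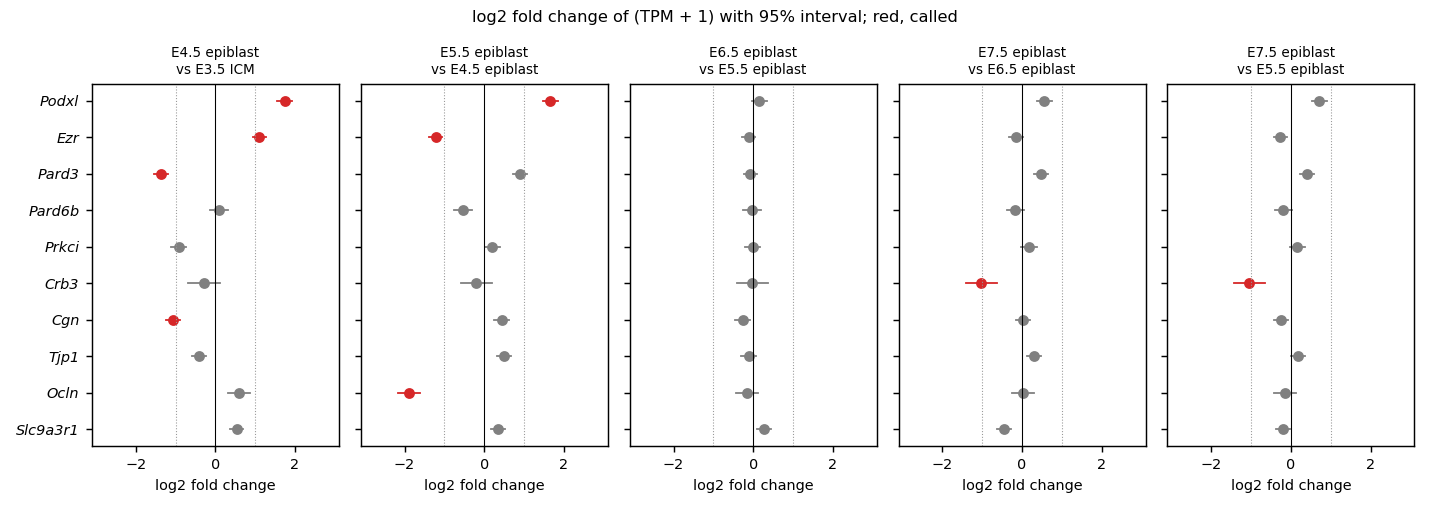
log2 fold change of TPM + 1 (horizontal axis) with its 95% interval for the 10 genes in the 5 comparisons of embryo stages, red where called. The called genes crowd in the steps to E4.5 and to E5.5, none is red from E5.5 to E6.5, and Crb3 is red in both comparisons with E7.5.

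Podxl, which encodes podocalyxin, had the largest ratio of highest to lowest group mean of the 10 genes, both in culture and in the embryo. In EpiLCs its TPM was 32.4, 32.4 and 33.3, in 2D EpiSCs 188, 187 and 153, in ESC-derived 3D EpiSCs 33.3, 33.7 and 67.4 and in embryo-derived 3D EpiSCs 76.1, 55.9 and 54.8. The 2D libraries were all above every other culture library and the EpiLC libraries lay beside the lower pair of ESC-derived 3D libraries. Podxl RNA was thus lower in the lumen-forming cultures than in the flat one, and these libraries do not measure the podocalyxin protein or its place in the cell. It was 4.07-fold lower in ESC-derived 3D than in 2D EpiSCs (log2 fold change -2.02 ± 0.23 SE, adjusted p = 7.47e-05) and 2.82-fold lower in embryo-derived 3D EpiSCs (log2 fold change -1.49 ± 0.23 SE, adjusted p = 0.000558), and 5.23-fold higher in 2D EpiSCs than in EpiLCs (log2 fold change 2.39 ± 0.23 SE, adjusted p = 5.43e-06). Against EpiLCs, Podxl was called in neither 3D culture. The log2 difference was 0.36 in the ESC-derived culture (95% interval -0.14 to 0.87, adjusted p = 0.222) and 0.89 in the embryo-derived one (95% interval 0.39 to 1.40, adjusted p = 0.00645), which passed the adjusted p and not the fold required. Without replicate 3 of the ESC-derived 3D EpiSCs these values were -2.35 against 2D EpiSCs and 0.034 against EpiLCs. The 3D cultures differed from each other by -0.53 (95% interval -1.04 to -0.022, adjusted p = 0.12), or by -0.86 without that library (adjusted p = 0.00139), which is still under the fold required.

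In the embryo, Podxl rose through implantation. Its TPM was 14.3, 13.2 and 14.1 at E3.5, 51.5, 52.1 and 42.5 at E4.5, 148, 161 and 155 at E5.5, 162, 172 and 183 at E6.5 and 259.9, 252 and 252 at E7.5. No library of a stage overlapped with those of the stage before. It rose 3.33-fold from E3.5 to E4.5 (log2 fold change 1.74 ± 0.089 SE, adjusted p = 1.97e-09) and 3.14-fold from E4.5 to E5.5, the step at which the epiblast opens its cavity (log2 fold change 1.65 ± 0.089 SE, adjusted p = 2.19e-09). The next steps did not pass the test for size, with 0.15 ± 0.089 from E5.5 to E6.5 (adjusted p = 0.296) and 0.56 ± 0.089 from E6.5 to E7.5 (adjusted p = 0.000161). The rise at E4.5 went with a lower sum of the endoderm markers and high trophectoderm markers, and the rise at E5.5 with a fall of all 6 trophectoderm markers tested and a rise of 8 of 12 endoderm markers. The part of these cells in it was not tested. Over the 15 embryo libraries, the genes whose log2(TPM + 1) was most like that of Podxl were Mapk3 (Pearson's r = 0.996), Slc16a1 (0.995) and Sox11 (0.994), out of 11879 genes compared, a description over libraries that share stages.

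**Figure D4:**
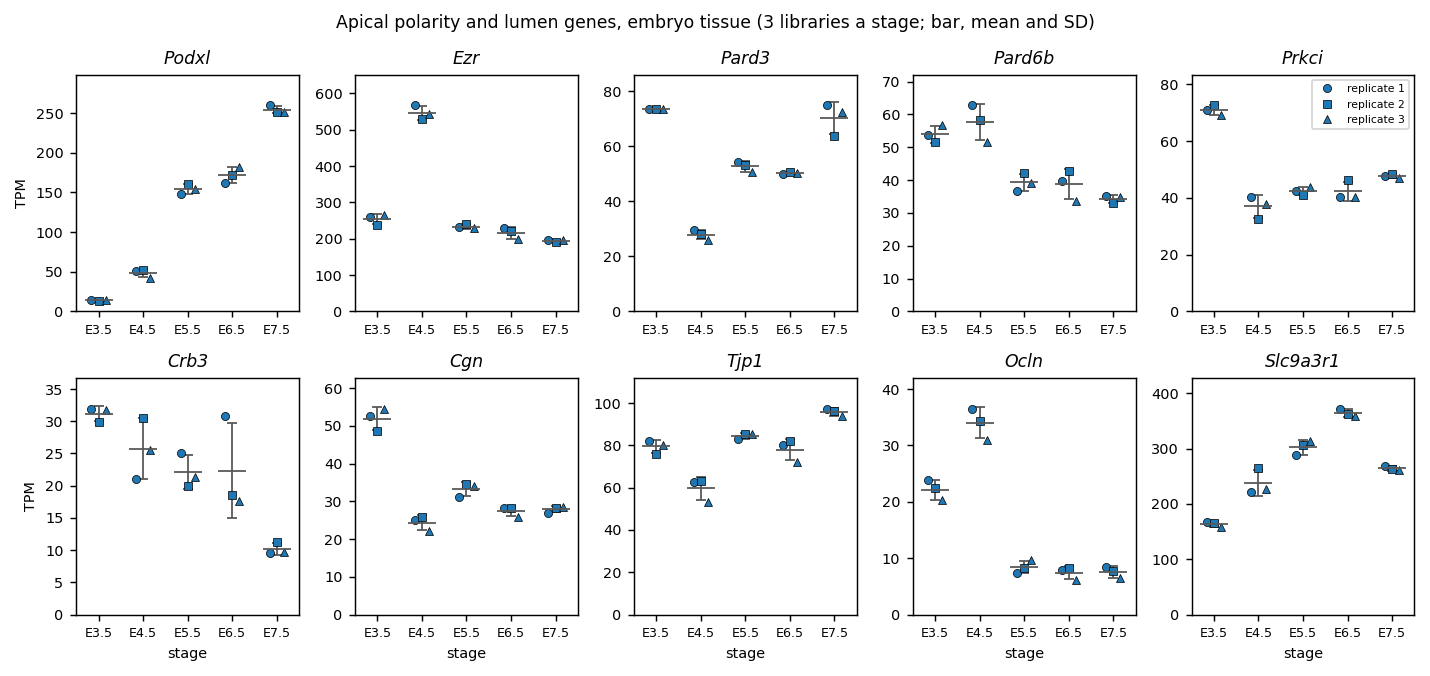
TPM of the 10 genes (vertical axis, from 0) at 5 embryo stages, with each of the 3 libraries of a stage as a point and the mean and SD as a bar. The mean of Podxl goes from 13.8 at E3.5 to 255 at E7.5, while Ezr and Ocln are highest at E4.5.

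Ezr, which encodes ezrin, the linker between apical membrane proteins and actin, peaked at E4.5. Its TPM was 259, 238 and 264 at E3.5, 567, 529.8 and 544 at E4.5, 233, 239 and 228 at E5.5, 231, 220.3 and 198 at E6.5 and 196, 191 and 195 at E7.5. All 3 E4.5 libraries were above every other embryo library. Ezr rose 2.15-fold from E3.5 to E4.5 (log2 fold change 1.11 ± 0.077 SE, adjusted p = 4.71e-08) and fell 2.34-fold from E4.5 to E5.5 (log2 fold change -1.22 ± 0.077 SE, adjusted p = 1.17e-08), opposite to Podxl at that step. Trophectoderm markers were high in both E3.5 and E4.5 libraries and low from E5.5, and their part in the peak was not tested. In culture, Ezr was at 201, 223 and 211 TPM in EpiLCs, 175, 176 and 198 in 2D, 166, 173 and 179 in ESC-derived 3D and 159, 131 and 136 in embryo-derived 3D EpiSCs. No culture comparison of Ezr was called, and the largest difference was -0.58 ± 0.098 in embryo-derived 3D EpiSCs against EpiLCs (adjusted p = 0.000411).

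Radixin (Rdx) and moesin (Msn), the paralogs that can stand in for ezrin, followed other courses. Mean TPM of Rdx was 93.4 ± 4.47 at E3.5, 127 ± 3.43 at E4.5, 192 ± 18.5 at E5.5 and 268 ± 9.17 at E7.5 (SD, n = 3), and that of Msn was 195 ± 5.65, 93.2 ± 3.96, 66.5 ± 4.72 and 90.3 ± 4.25. Ezr was thus the most abundant of the family at E3.5, E4.5 and E5.5, with 71.3% of the family's summed TPM at E4.5 and 47.5% at E5.5, and Rdx was the most abundant at E6.5 and E7.5 and in embryo-derived 3D EpiSCs. Rdx was called in no comparison, and Msn, which lies on the X chromosome, was not tested.

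Slc9a3r1, which encodes the scaffold NHERF1 between podocalyxin and ezrin, was abundant throughout and was called in no comparison. In the embryo its TPM was 168, 166 and 158 at E3.5, 221, 265 and 227 at E4.5, 288, 307 and 314 at E5.5, 372, 363 and 358 at E6.5 and 269, 263 and 261 at E7.5. It was highest at E6.5, without overlap with E5.5 or E7.5, and the differences at these steps were 0.27 ± 0.080 (adjusted p = 0.0497) and -0.46 ± 0.080 (adjusted p = 0.000357). In culture, it was at 143, 155 and 142 in EpiLCs, 216, 214 and 213 in 2D, 217, 217 and 203 in ESC-derived 3D and 151, 119.7 and 118 in embryo-derived 3D EpiSCs. The ESC-derived 3D and 2D EpiSCs overlapped, with a difference of -0.012 (95% interval -0.24 to 0.21). Embryo-derived 3D EpiSCs were below both, with a difference of -0.73 ± 0.10 against 2D EpiSCs (adjusted p = 0.000279). Between the 3D cultures the difference was 0.72 ± 0.10 (adjusted p = 0.000856), short of the fold required, and 0.75 without ESC-derived replicate 3.

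Of the Par complex, Pard3, Pard6b and Prkci were called in no culture comparison. Pard3, the scaffold that recruits the complex to junctions, was at 49.6, 37.9 and 32.1 TPM in EpiLCs, 55.8, 48.4 and 41.1 in 2D, 32.5, 33.6 and 39.6 in ESC-derived 3D and 36.9, 55.9 and 54.6 in embryo-derived 3D EpiSCs. Pard6b, the adaptor of the kinase, was at 29.8, 29.0 and 31.5 in EpiLCs, 48.6, 47.5 and 46.5 in 2D, 32.8, 29.6 and 33.8 in ESC-derived 3D and 29.9, 35.5 and 34.0 in embryo-derived 3D EpiSCs. For Pard3 the cultures overlapped except for ESC-derived 3D and 2D EpiSCs, while for Pard6b the 2D EpiSCs were above all other cultures. Prkci, the atypical kinase itself, was at 93.8, 92.9 and 94.1 in EpiLCs, 80.3, 84.0 and 94.9 in 2D, 57.9, 59.6 and 85.3 in ESC-derived 3D and 68.9, 72.9 and 70.6 in embryo-derived 3D EpiSCs. Over the 6 culture comparisons, the largest difference was 0.64 ± 0.092, of Pard6b in 2D EpiSCs against EpiLCs (adjusted p = 0.000102). Pard6b was lower in both 3D cultures than in 2D EpiSCs by under the fold required, at -0.55 ± 0.092 and -0.51 ± 0.092 (adjusted p = 0.000775 and 0.00146), the former -0.59 without replicate 3. For Prkci, the ESC-derived 3D EpiSCs differed from 2D EpiSCs by -0.37 with replicate 3 and -0.54 without it, and from EpiLCs by -0.49 and -0.66.

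In the embryo, Pard3 was lowest at E4.5. Its TPM was 73.5, 73.5 and 73.5 at E3.5, 29.4, 28.0 and 26.1 at E4.5, 54.3, 53.1 and 50.6 at E5.5, 49.7, 50.5 and 50.1 at E6.5 and 74.8, 63.8 and 72.4 at E7.5. The E4.5 libraries were below those of every other stage. The fall from E3.5 to E4.5 was 2.59-fold (log2 fold change -1.37 ± 0.078 SE, adjusted p = 6.12e-09), and the difference from E4.5 to E5.5, 0.90 ± 0.078 (adjusted p = 3.06e-07), stayed below the fold required. Prkci was at 71.1, 72.5 and 69.2 at E3.5, 40.4, 32.6 and 37.9 at E4.5, 42.3, 41.0 and 43.9 at E5.5, 40.3, 46.2 and 40.1 at E6.5 and 47.7, 48.3 and 46.8 at E7.5, so that the E3.5 libraries stood above all later ones. Its difference at E4.5, -0.93 ± 0.089 (adjusted p = 1.12e-06), was also short of a call. Pard6b was at 53.6, 51.6 and 56.7 at E3.5, 62.7, 58.4 and 51.7 at E4.5, 36.7, 42.1 and 39.0 at E5.5, 39.7, 42.9 and 33.7 at E6.5 and 35.1, 32.9 and 34.8 at E7.5. All E3.5 and E4.5 libraries were above all later ones, with -0.54 ± 0.10 from E4.5 to E5.5 (adjusted p = 0.000416). The genes most like Prkci over the 15 embryo libraries were Rtn4 (r = 0.977), Prep (0.975) and Garem1 (0.974).

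Prkci and Pard6b were the most abundant of their families in every group. The second atypical kinase, Prkcz, was at 52.3 ± 3.84 TPM at E3.5 (SD, n = 3), or 42.4% of the summed TPM of both kinases, and fell to 18.6 ± 2.32 at E4.5 (log2 fold change -1.45 ± 0.098, adjusted p = 3.23e-08). In the 3D cultures it made up 15.4% and 13.7%. Pard6g, a paralog of Pard6b, was at 26.1 ± 3.83 in 2D EpiSCs and lower in both 3D cultures, at 7.95 ± 0.300 and 8.32 ± 0.730 (-1.59 ± 0.14 and -1.53 ± 0.14, adjusted p = 1.65e-05 and 1.38e-05). It also rose from 3.29 ± 0.508 at E6.5 to 12.9 ± 0.494 at E7.5 (1.70 ± 0.092, adjusted p = 6.75e-09).

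Crb3, a short Crumbs protein with a membrane span that anchors its complex in the apical membrane, set EpiLCs apart from all EpiSCs. Its TPM was 24.0, 25.8 and 16.3 in EpiLCs, 108, 97.1 and 101 in 2D, 63.2, 70.1 and 74.2 in ESC-derived 3D and 47.6, 54.9 and 55.1 in embryo-derived 3D EpiSCs. No library of a culture overlapped with those of another, in the order EpiLC, embryo-derived 3D, ESC-derived 3D and 2D. Against EpiLCs it was 3.09-fold higher in ESC-derived 3D EpiSCs (log2 fold change 1.63 ± 0.15 SE, adjusted p = 4.9e-06), 2.36-fold in embryo-derived 3D EpiSCs (log2 fold change 1.24 ± 0.15 SE, adjusted p = 2.95e-05) and 4.55-fold in 2D EpiSCs (log2 fold change 2.18 ± 0.15 SE, adjusted p = 3.11e-07). Against 2D EpiSCs, the differences of -0.56 ± 0.15 and -0.95 ± 0.15 in ESC-derived and embryo-derived 3D EpiSCs (adjusted p = 0.011 and 0.000597) were below the fold required. The neighbours in this order, the 3D cultures, differed by 0.39 (95% interval 0.065 to 0.72, adjusted p = 0.0817). Without replicate 3 of the ESC-derived 3D EpiSCs, the difference of that culture was 1.58 from EpiLCs, -0.61 from 2D EpiSCs and 0.34 from the embryo-derived culture.

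In the embryo, Crb3 was at 32.0, 29.9 and 31.7 at E3.5, 21.0, 30.6 and 25.6 at E4.5, 25.0, 19.9 and 21.4 at E5.5, 30.8, 18.6 and 17.6 at E6.5 and 9.50, 11.3 and 9.74 at E7.5. The libraries of neighbouring stages overlapped from E3.5 to E6.5, and all E7.5 libraries were lower than every earlier library. Crb3 fell 2.03-fold from E6.5 to E7.5 (log2 fold change -1.02 ± 0.18 SE, adjusted p = 0.000437) and 2.06-fold from E5.5 to E7.5 (log2 fold change -1.04 ± 0.18 SE, adjusted p = 0.000388). Both values lie close to the fold required. The call from E6.5 to E7.5 was lost without E6.5 replicate 1 (-0.78) or E7.5 replicate 1 (-0.98) or 3 (-0.99), and that from E5.5 without E5.5 replicate 1 (-0.95) or E7.5 replicate 1 (-0.9996). Over the same step, 5 of 8 primitive streak and mesoderm markers rose, 2 fell, and 6 of 7 epiblast markers fell, and their part in the fall of Crb3 was not tested. Crb2, the paralog of Crb3 with a long extracellular part, rose where Crb3 fell, from 2.03 ± 0.512 at E6.5 to 15.5 ± 0.798 at E7.5 (SD, n = 3, log2 fold change 2.46 ± 0.15, adjusted p = 2.92e-08). Its share of the summed TPM of the 3 Crumbs genes was 8.51% ± 2.29 at E6.5 and 59.9% ± 1.11 at E7.5. Crb1 stayed far below the filter on low values in every group.

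**Figure D5:**
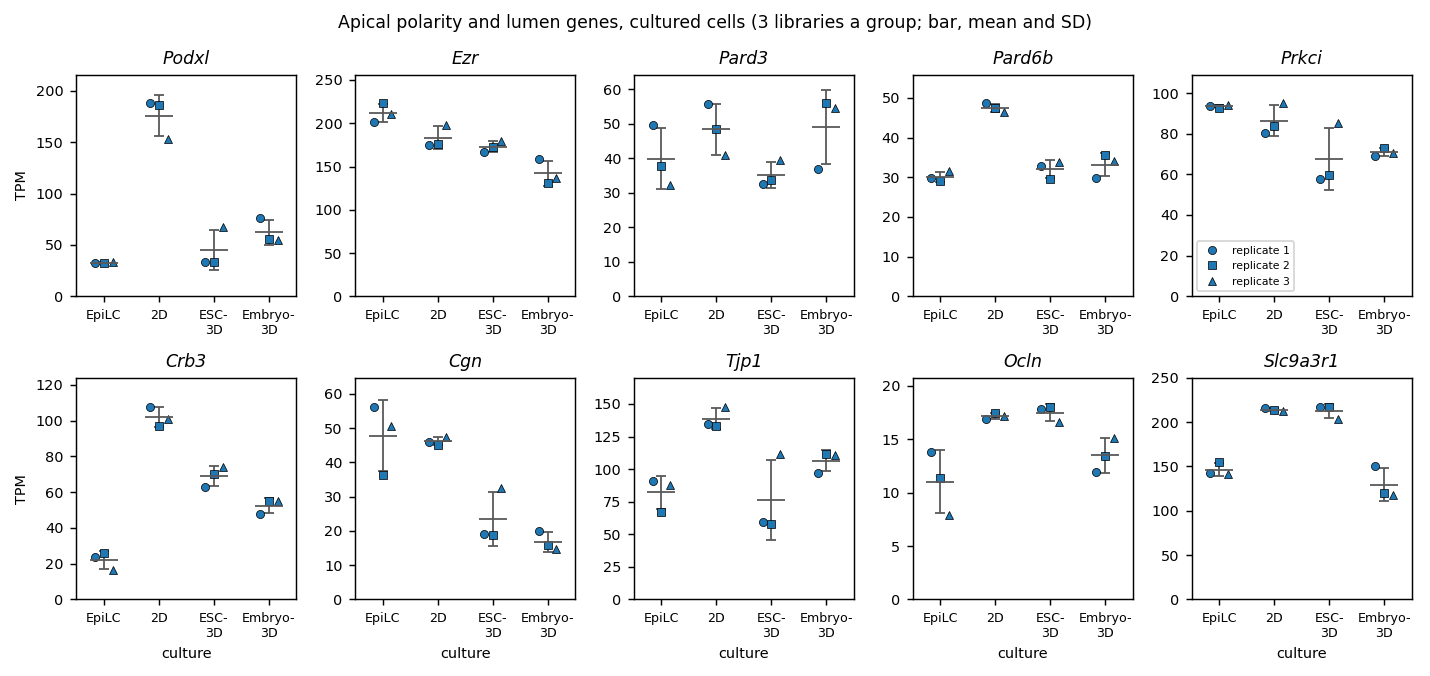
TPM of the 10 genes (vertical axis, from 0) in the 4 cultures, with each of the 3 libraries of a culture as a point shaped by replicate and the mean and SD as a bar. Podxl and Crb3 are highest in 2D EpiSCs, and replicate 3 of the ESC-derived 3D EpiSCs lies above the others for Podxl, Prkci, Cgn and Tjp1.

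The tight junction genes separated in culture. Cgn, which encodes cingulin, a cytoplasmic protein of the junction that binds actomyosin, was at 56.2, 36.3 and 50.7 TPM in EpiLCs, 45.9, 45.2 and 47.5 in 2D, 19.0, 18.8 and 32.6 in ESC-derived 3D and 20.1, 15.7 and 14.7 in embryo-derived 3D EpiSCs. Every 3D library was below every 2D and EpiLC library. In embryo-derived 3D EpiSCs Cgn was 2.67-fold lower than in 2D EpiSCs (log2 fold change -1.42 ± 0.21 SE, adjusted p = 0.000443) and 2.71-fold lower than in EpiLCs (log2 fold change -1.44 ± 0.21 SE, adjusted p = 0.000149). In ESC-derived 3D EpiSCs it was 2.02-fold lower than in EpiLCs (log2 fold change -1.02 ± 0.21 SE, adjusted p = 0.00248), while the difference from 2D EpiSCs, -0.99 ± 0.21, lay just short of the fold required (adjusted p = 0.00361). Both ESC-derived values lie near that limit: the call against EpiLCs was lost without ESC-derived replicate 1 (-0.89) or 2 (-0.89) and without EpiLC replicate 1 (-0.89) or 3 (-0.96) but was -1.27 without ESC-derived replicate 3, and the difference from 2D EpiSCs was called without ESC-derived replicate 3 (-1.24) or 2D replicate 2 (-1.01). 2D EpiSCs and EpiLCs differed by -0.023 (95% interval -0.49 to 0.44).

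Tjp1, which encodes the scaffold ZO-1, was at 90.8, 67.5 and 88.2 TPM in EpiLCs, 135, 133 and 148 in 2D, 59.3, 58.2 and 111 in ESC-derived 3D and 97.4, 111 and 111 in embryo-derived 3D EpiSCs. All 2D libraries were above all other culture libraries. In ESC-derived 3D against 2D EpiSCs the difference was -0.92 ± 0.21 (adjusted p = 0.00541), and it reached -1.22 and was called without replicate 3, whose TPM was nearly that of the embryo-derived libraries. Ocln, which encodes the membrane protein occludin, was at 13.8, 11.4 and 7.89 in EpiLCs, 16.9, 17.5 and 17.1 in 2D, 17.8, 18.0 and 16.6 in ESC-derived 3D and 11.9, 13.4 and 15.1 in embryo-derived 3D EpiSCs. Occludin was called in no culture comparison, with 0.65 ± 0.16 in ESC-derived 3D EpiSCs and 0.63 ± 0.16 in 2D EpiSCs against EpiLCs (adjusted p = 0.00556 and 0.00488), the former 0.69 without replicate 3.

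In the embryo, Ocln had the largest fall called among the 10 genes. Its TPM was 23.8, 22.4 and 20.3 at E3.5, 36.5, 34.4 and 31.1 at E4.5, 7.37, 8.28 and 9.65 at E5.5, 7.92, 8.22 and 6.21 at E6.5 and 8.51, 7.64 and 6.43 at E7.5. All libraries from E5.5 on were below all earlier ones. Ocln fell 3.72-fold from E4.5 to E5.5 (log2 fold change -1.90 ± 0.13 SE, adjusted p = 2.28e-08), after a difference of 0.59 ± 0.13 from E3.5 to E4.5 that was below the fold required (adjusted p = 0.00146). The trophectoderm markers fell at the same step as Ocln, and their part in it was not tested. Cgn was at 52.5, 48.7 and 54.6 at E3.5, 25.0, 26.0 and 22.0 at E4.5, 31.1, 34.5 and 34.0 at E5.5, 28.3, 28.3 and 26.0 at E6.5 and 27.0, 28.1 and 28.6 at E7.5. It fell 2.09-fold from E3.5 to E4.5 (log2 fold change -1.06 ± 0.084 SE, adjusted p = 1.7e-07), a call lost after rescaling (-0.95) and without E4.5 replicate 3 (-0.996). Tjp1 stayed within 53.3 to 97.4 TPM over all 15 libraries, lowest at E4.5, and was called at no step.

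Set side by side without a test, because the kits differ, Podxl had a mean TPM of 155 ± 6.40 at E5.5 and 172 ± 10.4 at E6.5, 176 ± 19.6 in 2D EpiSCs, and 44.8 ± 19.6 and 62.3 ± 11.9 in ESC-derived and in embryo-derived 3D EpiSCs (SD, n = 3 each). Crb3 was at 22.1 ± 2.63 at E5.5, 22.0 ± 5.01 in EpiLCs, 69.2 ± 5.58 and 52.5 ± 4.26 in the 3D cultures and 102 ± 5.42 in 2D EpiSCs. Within each group, Ezr or Slc9a3r1 was the most abundant of the 10 genes, and Ocln was the least abundant except at E3.5, where Podxl was, and at E4.5, where Cgn was.

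Other genes of the same structures were counted in lists, beside the 10. Their counts are to be read beside the shares of all genes called in the same comparison, given above. A list count near that share is no result about the list. List counts after rescaling or without replicate 3 come from other fits. They have no share beside them and are not read as results about a list. Among the 15 other tight junction genes, 14 were tested in culture. In 2D EpiSCs, 9 were higher than in EpiLCs and none lower, with a median log2 fold change of 1.25 beside 0.18 for all genes. The largest were the claudins Cldn3 (2.07 ± 0.26), Cldn7 (1.89 ± 0.16) and Cldn6 (1.79 ± 0.10), the adhesion receptor Cxadr (1.59 ± 0.17) and Marveld3 (1.57 ± 0.16), a relative of occludin. After rescaling, 7 were higher. In ESC-derived 3D EpiSCs 3 were higher (2 higher and 1 lower without replicate 3) than in EpiLCs, Cldn7 (2.10 ± 0.16), Marveld3 (1.71 ± 0.16) and Marveld2 (1.01 ± 0.12), and in embryo-derived 3D EpiSCs Cxadr (1.30 ± 0.17), Cldn7 (1.30 ± 0.16) and Marveld3 (1.29 ± 0.16) were higher and Cldn4 (-3.59 ± 0.18) was lower.

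Against 2D EpiSCs, the other tight junction genes called were all lower. In ESC-derived 3D EpiSCs, 2 of 14 were called, Cldn3 (-1.57 ± 0.26) and Cldn4 (-1.25 ± 0.18), and without replicate 3 there were 3. In embryo-derived 3D EpiSCs, 4 of 14 were called, Cldn4 (-4.10 ± 0.18), Cldn3 (-2.37 ± 0.26), Cldn6 (-1.03 ± 0.10) and Tjp3 (-1.02 ± 0.36), and after rescaling 2 were. Cldn4 had a mean TPM of 39.9 ± 11.6 in EpiLCs, 55.9 ± 4.67 in 2D, 23.0 ± 2.63 in ESC-derived 3D and 2.32 ± 0.278 in embryo-derived 3D EpiSCs (SD, n = 3), and was the only gene of the list called between the 3D cultures (2.85 ± 0.18, adjusted p = 1.44e-06). The medians of the list were -0.72 and -0.64 against 2D EpiSCs.

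Of the 12 other apical polarity genes, 9 were tested in culture, and 4 were higher in 2D EpiSCs than in EpiLCs: Mpdz (2.00 ± 0.23), Patj (1.47 ± 0.14) and Mpp5 (1.42 ± 0.15), scaffolds that hold the Crumbs complex together, and Crb2 (1.24 ± 0.17). Crb2 was at or below 2 TPM, the limit of the filter, in every EpiLC library. Mpdz was also higher than in EpiLCs in ESC-derived (1.19 ± 0.23) and embryo-derived 3D EpiSCs (1.42 ± 0.23), and the former was not called without replicate 3 of the ESC-derived culture. Pard6g was the only gene of this list called against 2D EpiSCs in either 3D culture. Without replicate 3, 4 were called in ESC-derived 3D EpiSCs, a count without a share of all genes from that fit. Of the 7 basolateral genes, all tested, limma called none in either 3D culture against 2D EpiSCs or EpiLCs. At an adjusted p below 0.05, 5 were lower in ESC-derived and 2 in embryo-derived 3D against 2D EpiSCs, beside 35.9% and 22.9% of all genes. The former count was 4 without replicate 3. In 2D EpiSCs 1, Llgl2 (1.08 ± 0.10), was called higher than in EpiLCs, and none after rescaling.

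Of the 17 genes of apical vesicle trafficking, the route by which podocalyxin reaches the membrane, 15 were tested in culture. Against 2D EpiSCs, 5 were lower in ESC-derived 3D EpiSCs, Anxa2 (-2.99 ± 0.47), Myo5b (-1.50 ± 0.27), Rab3b (-1.12 ± 0.10), Sytl2 (-1.11 ± 0.23) and Exoc4 (-1.06 ± 0.11), and 3 in embryo-derived 3D EpiSCs, Anxa2 (-3.70 ± 0.47), Rab3b (-1.28 ± 0.10) and Rab11fip1 (-1.01 ± 0.11). After rescaling, 2 were lower in each. Without replicate 3, the ESC-derived values were -3.38 for Anxa2, -1.87 for Myo5b, -1.11 for Rab3b, -1.37 for Sytl2 and -1.07 for Exoc4, and all 5 were called. In 2D EpiSCs 3 were higher than in EpiLCs, Anxa2 (4.94 ± 0.47), Sytl2 (2.17 ± 0.23) and Myo5b (1.74 ± 0.27). Sytl2 and Myo5b were at or below 2 TPM in every EpiLC library, so these calls are against values under the limit of the filter. Anxa2, the annexin that tethers these vesicles, was at 3.49 ± 1.86 TPM in EpiLCs, 129.6 ± 15.4 in 2D, 16.8 ± 9.21 in ESC-derived 3D and 10.8 ± 8.62 in embryo-derived 3D EpiSCs (SD, n = 3), and like Podxl it was highest in 2D EpiSCs. Of 5 endoderm markers tested, 4 were lower in ESC-derived 3D EpiSCs than in 2D EpiSCs, while the embryo-derived culture had 2 lower and 1 higher. Of 4 trophectoderm markers tested, 3 were lower than in 2D EpiSCs in each 3D culture, at medians of -1.59 (ESC-derived) and -1.57 (embryo-derived). Krt18 led this list, at a mean of 336 TPM in 2D EpiSCs. Cdx2, Elf5, Plac1 and Tfap2a were at or below 2 TPM in every EpiSC library, and Rhox6 and Rhox9 were at 0. Gata3, Wnt7b and the endoderm marker Gata4 were at or below 2 TPM in every 3D and EpiLC library. They passed the filter through the 2D libraries alone, so their lower level in 3D was largely fixed by the filter. Pdgfra was at or below 2 TPM in every other culture and passed through the embryo-derived libraries alone. These marker counts and medians are therefore no result about the lists. Whether the EpiSC cultures held cells of either kind, and their part in the levels of Anxa2 and Podxl, was not tested. Of the 11 other genes of the apical membrane, 7 were tested. Against 2D EpiSCs, 1 was called lower in ESC-derived 3D EpiSCs, Pdzk1 (-1.0004 ± 0.19), which was not called after rescaling. Pdzk1 was at or below 2 TPM in every library of both cultures, so this call compares values under the limit of the filter. None was called in embryo-derived 3D EpiSCs, where 4 were lower at an adjusted p below 0.05, beside 22.9% of all genes. Cd34, a sialomucin related to podocalyxin, was lower than in EpiLCs in 2D (-2.97 ± 0.13), ESC-derived 3D (-2.58 ± 0.13) and embryo-derived 3D EpiSCs (-3.38 ± 0.13), while Prom1 was higher in 2D (1.54 ± 0.099) and embryo-derived 3D EpiSCs (1.02 ± 0.099), the latter not after rescaling. Pdzk1, a scaffold of the NHERF family, was lower than in EpiLCs in all 3 EpiSC cultures, at -1.46 ± 0.19, -2.46 ± 0.19 and -2.32 ± 0.19. Without replicate 3 of the ESC-derived culture, its difference from EpiLCs was -2.59 for Cd34 and -2.48 for Pdzk1. Both genes were at or below 2 TPM in every library of the 3 EpiSC cultures and passed the filter through the EpiLC libraries alone. The median log2 fold change in ESC-derived and embryo-derived 3D against 2D EpiSCs was -0.65 and -0.56 for the other apical polarity genes, -0.36 and -0.19 for the basolateral genes, -0.27 and -0.40 for trafficking and -0.45 and -0.40 for the apical membrane, beside -0.21 and -0.077 for all genes tested.

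In the embryo, the list with most calls at the step to E4.5 was that of the other tight junction genes, all 15 tested, of which 3 rose and 6 fell. Of all genes tested, 5.88% were called higher there and 11.9% lower. The 5 largest were Jam2 (-2.86 ± 0.12), Tjp3 (-2.27 ± 0.14), Jam3 (-1.48 ± 0.15) and Magi1 (-1.39 ± 0.21), which fell, and Cldn6 (1.33 ± 0.11), which rose. From E4.5 to E5.5, 3 rose and 3 fell: Cldn4 (-4.21 ± 0.13), Cldn3 (-3.25 ± 0.22) and Jam2 (-2.05 ± 0.12) fell with Ocln, and Jam3 (2.87 ± 0.15) and Magi1 (2.21 ± 0.21) were among those that rose. Of the other apical polarity genes, 10 were tested, and 4 rose and 1 fell at this step, led by Mpdz (4.11 ± 0.14) and Patj (1.49 ± 0.10), scaffolds of the Crumbs complex, with Pard6g (-1.20 ± 0.092) falling. Of 7 basolateral genes, Llgl1 (1.45 ± 0.11) rose and Llgl2 (-1.07 ± 0.094) fell. Of 8 tested apical membrane genes, Vil1 (3.34 ± 0.17), Cd34 (1.72 ± 0.16) and Prom1 (1.18 ± 0.12) rose and Eps8 (-1.23 ± 0.14) fell, and of 13 tested trafficking genes Anxa2 (-4.83 ± 0.13), Rab11fip1 (-1.77 ± 0.11) and Rab27a (-1.45 ± 0.12) fell. Mpdz, Vil1 and Cd34 were at or below 2 TPM in every E3.5 and E4.5 library and passed the filter through later stages alone. Jam2 was at or below 2 TPM in every library from E5.5 on and passed through the earlier stages alone. Markers of trophectoderm fell and of visceral endoderm rose at this step, and villin, a protein of microvilli, is also made by visceral endoderm. Their part in these changes was not tested. The median log2 fold change from E4.5 to E5.5 was -0.44 for the other tight junction genes, 0.29 for apical polarity, 0.34 for basolateral polarity, 0.61 for the apical membrane and -0.32 for trafficking, beside 0.16 for all genes tested. Of all genes tested, 24.4% were called at this step, 14.9% higher and 9.47% lower, and list counts near these shares are no result about a list.

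From E5.5 to E6.5 limma called none of the 53 list genes tested, or 1 after rescaling, with 19 of 53 at an unadjusted p below 0.05, beside 26.6% of all genes. From E6.5 to E7.5, Crb2 (2.46 ± 0.15), Pard6g (1.70 ± 0.092) and Pard3b (1.21 ± 0.10) rose among the apical polarity genes, Magi1 (1.37 ± 0.21) and Cgnl1 (1.01 ± 0.14), a paralog of cingulin, rose and Marveld3 (-1.68 ± 0.29) fell among those of the tight junction, and Prom1 (1.09 ± 0.12), Slc9a3r2 (1.07 ± 0.19), Anxa2 (1.52 ± 0.13) and Rab8b (1.23 ± 0.088) rose. Pard3b was near the limit of the filter, at a mean TPM of 0.70 at E6.5 and 2.95 at E7.5. It was at or below 2 TPM in every library before E7.5, so it passed the filter through the E7.5 libraries alone. After rescaling, which lowers the differences at this step, 2 apical polarity genes were called higher, the tight junction list had 1 higher and 2 lower, and no apical membrane gene was called. The tight junction list had a median of -0.14 beside 0.31 for all genes, and from E5.5 to E7.5 it had 3 genes that fell, Marveld3 (-1.95 ± 0.29), Cldn3 (-1.30 ± 0.22) and Cldn4 (-1.02 ± 0.13), and none that rose, or 4 that fell after rescaling.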

How the data were processed

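RNA-seq was analysed for 27 of the 35 samples of the series, and the other 8 samples were not analysed here. Per the study's methods, the authors trimmed reads with cutadapt (2.4 in the submitters' processing notes), mapped reads with STAR (mm10) and obtained gene levels from StringTie and GENCODE annotation. The deposited table holds TPM values, which sum to 1000000 in each library, so no depth, counting interval or count test could be had. Culture libraries were made from captured mRNA and embryo libraries from total RNA with a low-input kit, which can shift levels between the settings. From the 54490 lines, 12 identifiers on several lines were summed, and empty cells on 56 lines were read as 0. Autosomal protein-coding genes (GENCODE vM21) above 2 TPM in at least 3 libraries of a setting were tested with limma 3.58.1 in R 4.3.3 on log2(TPM + 1), with 1 fit for the 4 cultures and 1 for the 5 embryo groups, and p-values adjusted by Benjamini-Hochberg over all genes of a fit. On simulated data for ESC-derived 3D against 2D EpiSCs (10975 genes), the fit recovered 93% of genes changed by a log2 of 1.5 and 99% of those changed by 2.5, and for E4.5 against E3.5 (10822 genes) 94% and 99%. The simulated noise was independent and normal, with the fitted spread of each gene. It held no close replicate pairs, no library standing apart and no shifted medians, so recovery in these libraries may differ. The 10 genes and the lists were chosen with earlier results of these data known. Of the 10 genes, every call is named and levels are given for all, while differences short of a call are given only in part. Of each list, at most the 5 called genes with the largest fold changes are named, and paralogs of the 10 genes outside that rule were chosen after their values were seen. Alternatives were a pseudocount of 0.1, no filter, all gene classes, median-of-ratios scaling, an intensity trend, a fit of the compared groups alone, averaging of close replicates, a replicate block and leaving out each library. List counts after rescaling and without ESC-derived 3D replicate 3 were added after the data were seen. Sequences are from RefSeq (GRCm38.p6).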

Additional observations from a re-analysis of the deposited data

Results flagged for a closer look

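For Slc9a3r1, the scaffold NHERF1, the difference from 2D EpiSCs was not the same in the 3D cultures. It was -0.012 ± 0.10 in ESC-derived and -0.73 ± 0.10 in embryo-derived 3D EpiSCs, and the difference between these values, tested by limma as the direct contrast of the 3D cultures, was 0.72 ± 0.10 on the log2 scale (adjusted p = 0.000856). All 3 ESC-derived libraries were above all 3 embryo-derived ones. The origin and the genetic background of these cultures cannot be told apart.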

How the results depend on the processing

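Of 1490 differences recomputed for the 10 genes under the alternatives, 1436 kept their direction and call, 12 lost the call, 4 gained it and 38 changed sign. Of the values that changed sign, 1 passed an adjusted p of 0.05, Cgn from E6.5 to E7.5 after rescaling (-0.30, adjusted p = 0.0089). Rescaling also turned Ezr (0.14) and Slc9a3r1 (0.21) in ESC-derived 3D against 2D EpiSCs, Pard6b (0.081) and Prkci (0.040) between the 3D cultures, Pard3 (0.013), Pard6b (0.057), Prkci (0.073) and Crb3 (0.057) from E5.5 to E6.5, Prkci (-0.16), Tjp1 (-0.037) and Ocln (-0.28) from E6.5 to E7.5, and Prkci (-0.084) and Tjp1 (-0.069) from E5.5 to E7.5. With close replicates averaged, Pard3 in embryo-derived 3D against 2D EpiSCs (-0.032) and Pard6b (0.0093) and Prkci (0.011) between the 3D cultures changed sign. Leaving out 1 library changed the sign of Slc9a3r1 in ESC-derived 3D against 2D EpiSCs (-0.029 to 0.020), Pard3 in ESC-derived 3D EpiSCs against EpiLCs (-0.30 to 0.0087) and in embryo-derived 3D against 2D EpiSCs (-0.10 to 0.20), Pard6b (-0.11 to 0.0098) and Prkci (-0.26 to 0.011) between the 3D cultures, Cgn in 2D EpiSCs against EpiLCs (-0.20 to 0.10), Pard6b (-0.099 to 0.071), Prkci (-0.074 to 0.026) and Crb3 (-0.27 to 0.12) from E5.5 to E6.5, and Cgn (-0.020 to 0.043) and Ocln (-0.096 to 0.11) from E6.5 to E7.5. The number of the 10 genes called was 2 in ESC-derived 3D against 2D EpiSCs with a pseudocount of 0.1, in place of 1, as Cgn was added (-1.02), and 1 in ESC-derived 3D EpiSCs against EpiLCs with close replicates averaged, in place of 2, as Cgn was lost (-0.89). With 1 library left out it was 1 to 3 and 1 to 2 in these comparisons, 3 to 4 from E3.5 to E4.5, and 0 to 1 from E6.5 to E7.5 and from E5.5 to E7.5. The cause of these shifts was not tested. Among all genes, the count called moved by over 1.5 times between the 3D cultures (457, or 719 with a pseudocount of 0.1 and 285 with close replicates averaged), from E5.5 to E6.5 (142, or 262 with that pseudocount and 316 with all gene classes) and from E6.5 to E7.5 (1496, or 2365 with all gene classes).

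Groups share replicate numbers, but same-numbered libraries did not deviate together: the mean correlation of their deviations from the group means was -0.0299 over 18 pairs in culture and -0.0166 over 30 pairs in the embryo, against 0.0122 and 0.00835 for different numbers. With the replicate block, all 110 differences of the 10 genes kept their direction and call, for example Podxl in ESC-derived 3D against 2D EpiSCs (-2.02) and from E4.5 to E5.5 (1.65), and the count of genes called moved by at most 1.41%. Since TPM keeps no depth, the counting error of low genes such as Ocln from E5.5 on could not be given.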
